A study of Salmo salar with 60 samples.

Results

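The steadiest bright transcript signals in the distal intestine of Atlantic salmon were described here across the first week on a soybean meal diet. They are 200 array probes out of 43689 in the deposited value table, named by their column and row on the array. Of these probes, 43627 never carried flag code 1, and 15720 of those had a median Cy5 signal between 200 and 30000 scanner units over 59 arrays. The 200 with the smallest standard deviation (SD) of the deposited log2 ratio over the same 59 arrays were taken, so the members were chosen by their measured spread. The whole week of feeding entered that SD, so the small spread and small day differences of these probes follow in part from the choice and are given as a description.

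The fish were Sunndalsøra breed salmon of 500 to 600 g, kept in running seawater with 25 to 30 fish to a tank and adapted for 7 days to a diet with 563 g of fishmeal per kg as its only protein source. The day 0 fish were sampled on that diet (9 arrays). The other fish, in 2 tanks, then ate a diet with 200 g of hexane-extracted soybean meal per kg in place of part of the fishmeal and were sampled after 1, 2, 3, 5 or 7 days (10 arrays each). Each array held the Cy5-labelled RNA of 1 fish and a Cy3-labelled pool of 18 fish, 3 from each sampling day, so the pool holds RNA of fed fish as well as of day 0 fish. Only fish with gut content throughout the intestine were taken, and all fed fish shared the diet change, with no fish kept on fishmeal to a later day, so time in the experiment and diet cannot be told apart. One further array, titled day 1 and tank 0, does not match the 2 tanks of the design and was put in no group.

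Soybean meal causes an inflammation of the hindgut in salmonids, in which mucosal folds shorten, absorptive vacuoles of the enterocytes are lost and leucocytes enter the lamina propria. Transcripts that hold steady through such a change are sought as reference genes, against which other transcripts are measured. In many tissues, transcripts of basic cell maintenance, such as those for ribosomes, the proteasome and splicing, vary little between individuals. The files pair no probe with a gene or a sequence, so which transcripts these probes read, and the tissue's cell type markers, are not analysed here. In whole tissue, a change in the share of a cell type and a change in RNA per cell cannot be told apart.

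The SD of the 200 probes over 59 fish ran from 0.113 to 0.177 on the log2 scale, with a median of 0.165. Over all 15720 probes of the brightness window the median was 0.393, and the 5th percentile was 0.211. All 200 probes lay below that percentile, by construction. The edge of the set was not a gap. Probes C246R089 and C144R152, just inside, had an SD of 0.1767 each, and C091R102 and C119R038, just outside, had 0.1767 and 0.1768.

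The stable probes were brighter than the window they came from. Their median Cy5 signal ran from 830 for C141R008 to 27741 for C216R032, with a median of 5195, against a window median of 1104. No probe with a median signal of 200 to 500 was among them, and 3 of 3176 came from 500 to 1000. From 4000 to 8000 units, 87 of 1541 probes (5.65%) were members, the highest share of any signal class. From 16000 to 30000 units it was 8 of 583 (1.37%). The median SD of a class fell from 0.446 at 200 to 500 units to 0.337 at 4000 to 8000 and was 0.390 at 16000 to 30000, so spread was smallest at middle signals and larger at both ends, and the part of signal in the choice was not tested.

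**Figure D1:**
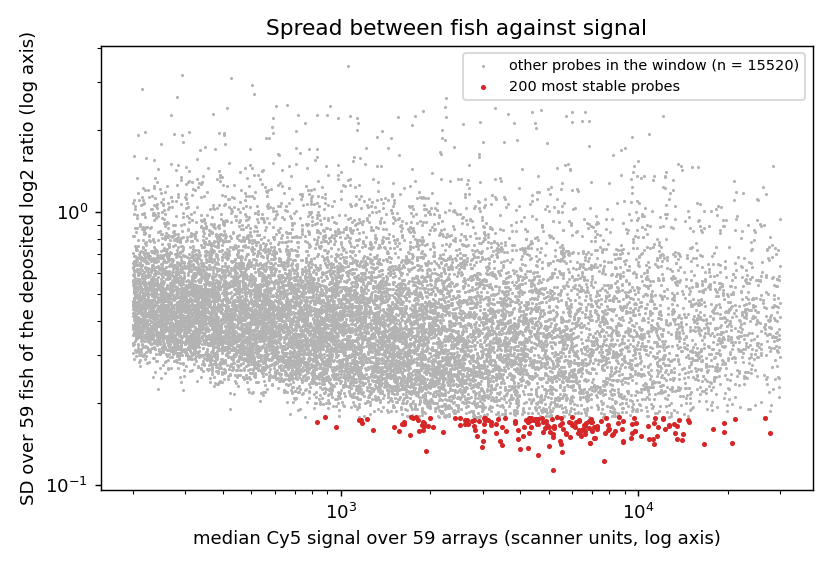
Each point is a probe of the brightness window, with its median Cy5 signal over 59 arrays on a log axis and the SD of its deposited log2 ratio over the same fish on a log axis; the 200 members are red. The members form the lower edge of the cloud, between 0.113 and 0.177, and are sparse below 1000 units.

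Probe C004R127 had the smallest SD of the deposited log2 ratio, 0.1131. Its log2 ratio to the pool, from the scanner signals after loess normalization, ran from -0.24 to 0.02 in the 9 day 0 fish, with a median of -0.10. After 1 day it ran from -0.27 to 0.12 with a median of -0.03, and after 2 days from -0.34 to 0.14 with a median of -0.05. These ranges overlap almost whole. After 3 days it ran from -0.19 to 0.21 (median -0.06), after 5 days from -0.19 to 0.05 (median -0.04), and after 7 days from -0.32 to 0.16 (median 0.01). Each of the 6 groups overlaps every other. The differences from day 0 were 0.04 to 0.08 with a standard error of 0.0707, and the 95% interval farthest from no change ended at 0.22 on day 7, which is 1.16-fold.

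C132R044 was second by the SD of the deposited log2 ratio, at 0.1221. After loess it had an SD of 0.118, against 0.12 for C004R127. The log2 ratio of C132R044 ran from -0.24 to 0.06 on day 0 (median -0.08). It ran from -0.30 to 0.17 on day 1 (median -0.04) and from -0.19 to 0.10 on day 2 (median -0.06). It ran from -0.25 to 0.09 on day 3 (median -0.07), from -0.28 to 0.28 on day 5 (median -0.06) and from -0.30 to 0.06 on day 7 (median -0.07). The 6 group medians thus lay within a band narrower than the spread in any group. Its differences from day 0 were -0.02 to 0.04, with a standard error of 0.0704, and no 95% limit on any day reached farther than 1.13-fold, the smallest bound of the 200. This probe carried flag code 3, a code with no deposited key, on 37 of 59 arrays.

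The next 4 probes were bounded nearly as closely. C218R164 ran from 0.08 to 0.33 on day 0 (median 0.11, mean 0.13 ± 0.08, SD, n = 9) and from -0.14 to 0.38 on day 7 (median -0.05, mean 0.02 ± 0.18, SD, n = 10). Its farthest limit, on day 7, was 1.19-fold, at the end of an interval from -0.26 to 0.03. The day 7 fish thus spanned the whole range of the day 0 fish. C239R170 ran from -0.08 to 0.32 on day 0 (median 0.13, mean 0.12 ± 0.12) and from 0.03 to 0.51 on day 1 (median 0.18, mean 0.20 ± 0.14), with a farthest limit of 1.17-fold. C086R124, dimmer than the other 5 at a median Cy5 of 1928, ran from -0.19 to 0.22 on day 0 (median -0.08, mean -0.06 ± 0.13) and from -0.37 to 0.06 on day 5 (median -0.12, mean -0.14 ± 0.15), with a farthest limit of 1.17-fold. The groups of both probes overlap. C107R130 ran from -0.26 to 0.02 on day 0 (median -0.14, mean -0.11 ± 0.09) and from -0.36 to 0.02 on day 3 (median -0.18, mean -0.17 ± 0.14), with an interval from -0.21 to 0.09. In the last 3 probes the SD of each of these groups was larger than the difference between its means.

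**Figure D2:**
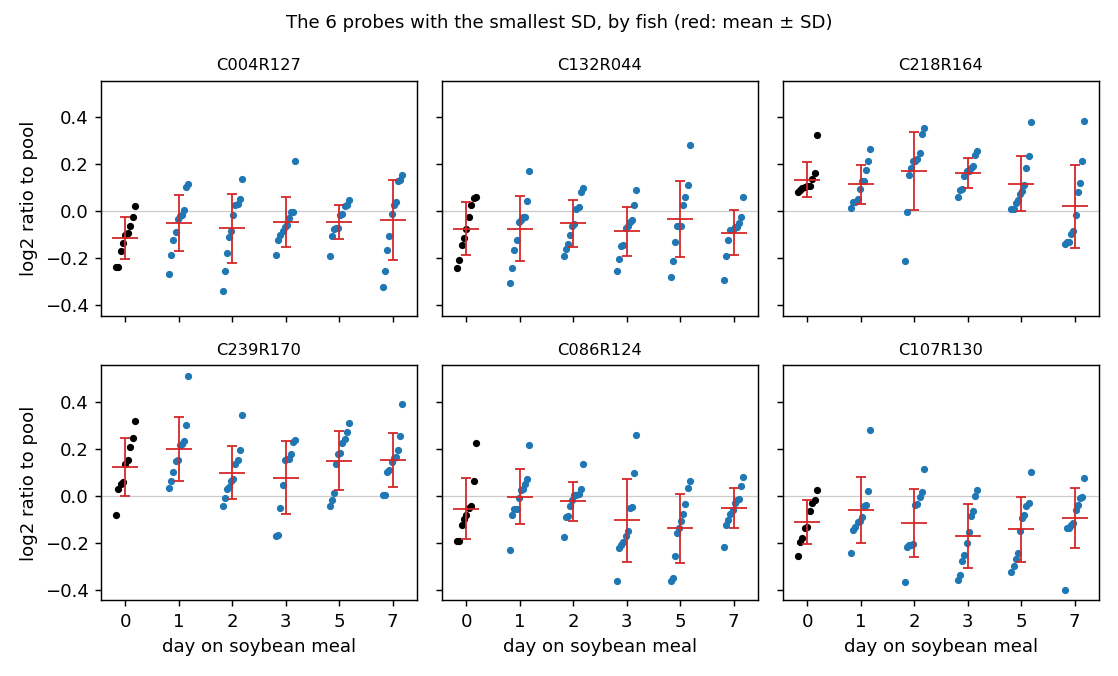
Each panel shows the loess-normalized log2 ratio to the pool (y axis) of 1 of the 6 probes with the smallest SD, for every fish by day on soybean meal (x axis; black day 0, n = 9; blue fed fish, n = 10 a day; fish of a day are spread sideways in order of value). Red marks are the mean ± SD, and in all 6 panels the range of each fed group overlaps that of day 0.

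At the ends of the signal range, the picture was alike. The brightest member, C216R032, had a Cy5 signal of 16878 to 41350 over the 59 arrays. Its log2 ratio ran from -0.09 to 0.39 on day 0 (median 0.34) and from -0.16 to 0.29 on day 2 (median 0.18), the day of its farthest limit, 1.21-fold. The dimmest, C141R008, had a Cy5 signal of 502 to 1716. Its log2 ratio ran from -0.26 to 0.15 on day 0 (median -0.15) and from -0.53 to -0.01 on day 2 (median -0.21), and its farthest limit was 1.24-fold on that day. Both pairs of groups overlap. At the edge of the set, the farthest limit was 1.17-fold for C246R089 and 1.2-fold for C144R152 inside it, and 1.18-fold for C091R102 and 1.19-fold for C119R038 outside it.

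The mean ratio to the pool over the 59 fish ran from -0.33 to 0.59 log2 units over the members, with a median of 0.02, and lay within 0.5 of the pool for 199 of 200. From the lowest to the highest fish, the ratio of a member spanned 0.55 to 1.11 log2 units, with a median of 0.75 (1.69-fold). For the median probe of the window the span was 1.69 log2 units. Between its highest and lowest array, the raw Cy5 signal differed 3.54-fold for the median member and 5.87-fold for the median probe of the window.

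Setting the fed fish of each day against the day 0 fish asks how large a change from day 0 remains possible for these probes. That change joins diet and time in the experiment, which cannot be told apart. The fit counts each fish as a replicate and does not model the 2 tanks. Its intervals thus rest on the spread between fish. The 95% interval of the difference, from the limma fit to all 43627 probes, had a half-width of 0.141 to 0.190 log2 units over the members, with a median of 0.170 (1.13-fold) on each of the 5 days. The half-width is the same on every day because each feeding day had 10 fish against the same 9. Over the window its median was 0.326 (1.25-fold). These widths depend on the scaling, since with median centring in place of loess the median half-width of the members was 0.271 (1.21-fold) and the farthest limit reached 1.59-fold, on day 2. The fit draws the spread of each probe towards that of all probes, which widens the interval of steady ones, and with ordinary standard errors the median half-width of the members was 0.151. The members were chosen for small spread over these same fish, so the widths are not independent of the choice.

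The differences themselves were small. On day 1 they ran from -0.15 to 0.14 over the 200 probes, with a median size of 0.0414. On day 2 they ran from -0.20 to 0.20 (median size 0.0486) and on day 3 from -0.21 to 0.20 (0.0485). On day 5 they ran from -0.19 to 0.18 (0.0567) and on day 7 from -0.17 to 0.14 (0.0438). The median standard error was 0.0851 on each day. On days 1, 2, 3, 5 and 7, 107, 91, 92, 100 and 89 of the 200 members were higher than on day 0. Of the 15720 window probes, 8093, 8233, 8833, 8455 and 7847 were higher on the same days. The split depends on the scaling in both sets. With median centring in place of loess, 37, 193, 167, 172 and 176 members were higher, and 5496, 13447, 12230, 11487 and 11963 window probes. On day 3, 73 members and 8334 window probes were higher in the authors' deposited values. These comparisons share the day 0 fish and are not independent of each other.

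Every member was bounded within 1.5-fold of day 0 on each feeding day after loess, in that the whole 95% interval lay inside 1.5-fold up and down. Over the window this held for 77.5%, 78.1%, 72.7%, 70.7% and 77.5% of probes on days 1, 2, 3, 5 and 7. Within 1.2-fold, 177 of 200 members were bounded on day 1, where the window had 8.76%. The count was 155 after 2 days (window 8.23%), 149 after 3 (7.19%), 152 after 5 (7.54%) and 170 after 7 (8.73%). With median centring 17, 5, 9, 14 and 6 members lay within 1.2-fold on the 5 days, and 198 to 200 within 1.5-fold. Of the window, 0.903%, 0.223%, 0.439%, 0.515% and 0.242% then lay within 1.2-fold, and 56.8% to 67.2% within 1.5-fold. After loess, 79 of 200 members lay within 1.2-fold on all 5 days at once, and 172 of the 15720 window probes did. With 99% intervals 8 of the 200 members and 8 of the 15720 window probes did. On the authors' deposited values, 1 member and 1 window probe did with 99% intervals. A bound of 2-fold did not separate the sets much, as it held for all 200 members and for 96.3%, 96.2%, 94.5%, 93.7% and 95.8% of the window on days 1, 2, 3, 5 and 7. The higher shares of the members follow from the choice, so nothing is read from them beyond the size of the bounds.

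Taking for each member the limit farthest from no change over the 5 days, the 200 values ran from 1.13-fold to 1.3-fold, with a median of 1.21-fold. With 99% intervals, one way to allow for 5 days, they ran from 1.17-fold to 1.35-fold with a median of 1.26-fold. In the window the median at 95% was 1.46-fold. The intervals bound the size of a change and do not show that a level was constant.

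**Figure D3:**
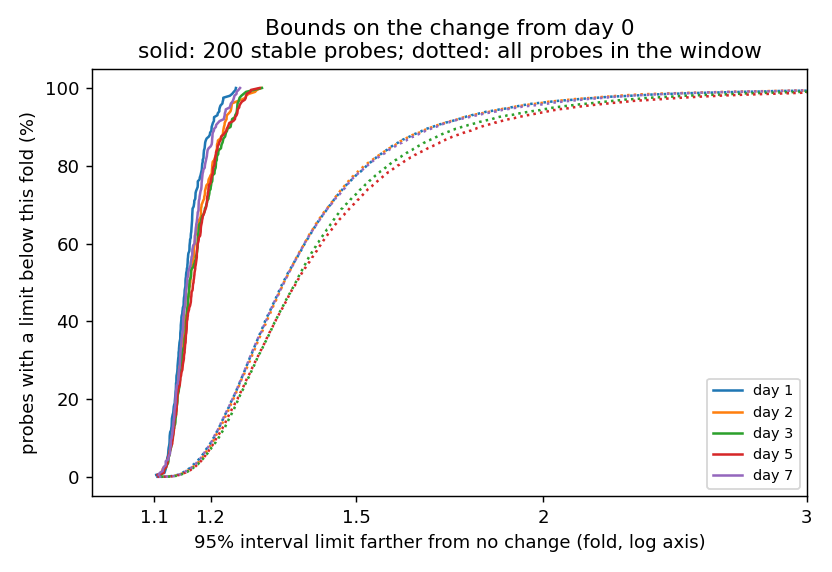
For each feeding day (colours), the line gives the percentage of probes (y axis) whose 95% interval limit farther from no change lies below the fold on the x axis (log axis, cropped at 3-fold). The solid lines of the 200 members reach 100% by 1.3-fold, while the dotted lines of all 15720 probes in the window stand between 70.7% and 78.1% at 1.5-fold.

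The 6 members with the widest limits show what the loosest bounds rest on. C076R035 had a log2 ratio of -0.13 to 0.49 on day 0 (median 0.05) and of -0.51 to 0.08 on day 3 (median -0.09). The groups overlap, and the difference of -0.21 (standard error 0.0812) had an interval from -0.38 to -0.05, or 1.3-fold at its far end. C217R119 ran from -0.28 to 0.40 on day 0 (median 0.14) and from -0.39 to 0.19 on day 2 (median -0.10). Its difference was -0.20 with an interval from -0.37 to -0.02. C196R088 was at -0.03 to 0.53 on day 0 (median 0.36) and -0.21 to 0.45 on day 5 (median 0.18), a difference of -0.19 with an interval from -0.37 to -0.01. Its differences were -0.10 to -0.19 on all 5 days, which share its day 0 fish.

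Another of the 6, C260R082, ran from -0.19 to 0.32 on day 0 (median 0.17) and from -0.26 to 0.16 on day 2 (median -0.08). The difference was -0.20 and the interval ran from -0.37 to -0.04. The remaining pair had its farthest limit above day 0. C150R034 ran from -0.24 to 0.32 on day 0 (median -0.01) and from 0.06 to 0.36 on day 2 (median 0.22), a difference of 0.20 with an interval from 0.04 to 0.36, while on day 7 its difference was -0.035. C089R047 ran from -0.10 to 0.38 on day 0 (median 0.07) and from -0.02 to 0.49 on day 3 (median 0.35), a difference of 0.20 with an interval from 0.04 to 0.36. In all 6, the ranges of the compared groups overlap, and limma's adjusted p was 0.989 for C196R088 on day 5 and 1.0 for the other 5 on the days named.

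With limma, 0 of 200 members passed an adjusted p of 0.05 on any feeding day, where the background was 0% of 43627 probes on each day. Without adjustment, 0 members had a p under 0.05 on day 1 (background 2.82%). Day 2 had 5 (3.00%), namely C150R034, which was higher, and C260R082, C217R119, C188R096 and C217R058, which were lower. Day 3 had 6 (4.78%), 2 of them above and 4 below day 0, and day 5 had 8 (4.03%), 5 above and 3 below. Day 7 had 2 (2.89%), C205R033 and C207R084, both lower with a difference of -0.17. C188R096, C217R058, C205R033 and C207R084 were named after their values were seen, and the 21 cases were 21 different probes, so no member was counted on more than 1 day. The unadjusted counts are 0%, 2.5%, 3.0%, 4.0% and 1.0% of the members on days 1, 2, 3, 5 and 7. In the brightness window the shares were 0.954%, 1.31%, 4.78%, 3.75% and 1.2% on the same days. Because the rule used the differences through the total SD, the counts are not read against the background or the window.

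To measure spread and bounds in fish that had not chosen the probes, the same rule was applied to the fish of each tank alone and the probes were measured in the other tank. The 200 probes steadiest in the 29 fish of tank 1 had a median SD of 0.165 there and of 0.172 in the 30 fish of tank 2, where the window median was 0.368. Of them, 200 lay below that window median and 180 below the window's 10th percentile. The 200 steadiest in tank 2 had a median SD of 0.150 there and 0.188 in tank 1, where the window median was 0.412. Here 199 lay below the window median, and the highest SD was 0.523. The ratio of a probe's SD in the unused tank to that in the choosing tank had a median of 1.07 and 1.28. The window median also differed between the tanks, and these ratios are not corrected for that. The lists of 200 came from windows of 15574 probes in tank 1 and 15852 in tank 2. They shared 70 probes, 35.0% of each, so most of each list was not on the other. How many probes unrelated lists of this size would share was not computed.

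**Figure D4:**
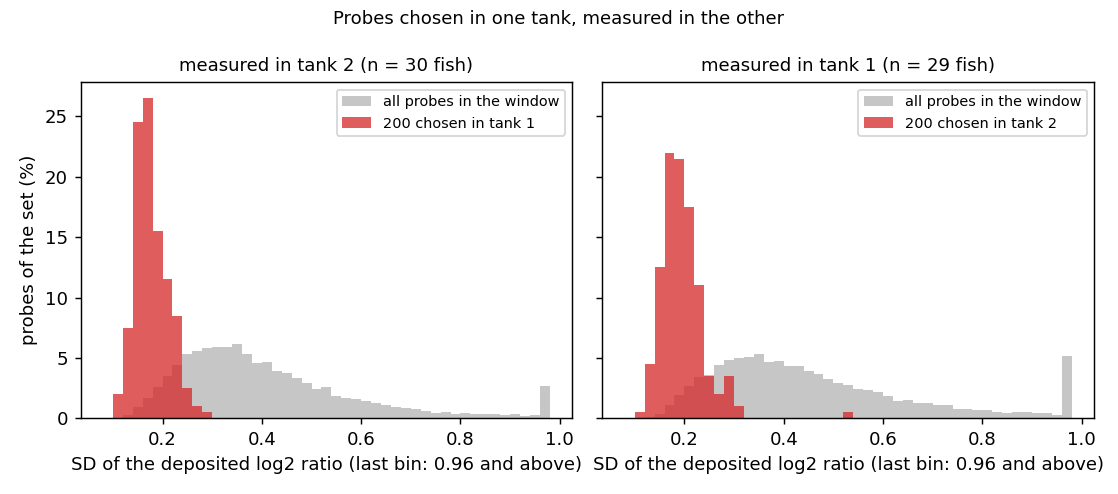
Histograms of the SD of the deposited log2 ratio (x axis) as a percentage of each set (y axis), for the 200 probes chosen in one tank (red) and all probes of the window (grey), both measured in the other tank. The red sets centre on 0.172 in tank 2 and 0.188 in tank 1, left of the grey medians of 0.368 and 0.412.

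The bounds in the unused tank rest on the fish of a single tank and were wider. On the loess-normalized scanner scale, with the choice made on that scale too, the half-width of the 95% interval was 0.270 (median probe) in tank 2 for probes chosen in tank 1, and 0.301 in tank 1 for those chosen in tank 2. The window medians were 0.427 and 0.505. The members themselves had 0.257 in tank 2 and 0.283 in tank 1, against 0.170 over both tanks. In tank 2, 190 of the 200 probes chosen in tank 1 lay within 1.5-fold of day 0 on all 5 days, against 28.9% of the window. In tank 1 it was 178 of 200, against 16.1%. With choice and bounds on the authors' deposited values, the half-widths were 0.282 in tank 2 and 0.336 in tank 1. The window medians were then 0.497 and 0.592. On those values, 186 and 161 of the 200 probes lay within 1.5-fold on all 5 days, against 19.2% and 9.03% of the window.

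A list chosen by the SD within days does not use the day means, but its small SD also makes the error of those means small, with a median standard error of 0.0848 against 0.163 in the window. Its differences from day 0 are therefore a description too. The list shared 181 of its 200 probes with the members. Its median size of difference from day 0 was 0.0414, 0.0492, 0.0570, 0.0577 and 0.0448 on days 1, 2, 3, 5 and 7, against 0.0853, 0.0861, 0.110, 0.119 and 0.0863 over the window. In units of its own standard error the median difference was 0.48, 0.589, 0.656, 0.677 and 0.532 on the 5 days. Over the window it was 0.509, 0.51, 0.657, 0.728 and 0.515. With limma, 0, 6, 12, 10 and 2 probes of the list had an unadjusted p under 0.05. Among the members 0, 5, 6, 8 and 2 did, and in the window 0.954%, 1.31%, 4.78%, 3.75% and 1.2%. Within 1.2-fold lay 174, 153, 140, 146 and 167 probes of the list on the 5 days.

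The array without a group took no part in the SD or the brightness window, but the filter for flag code 1 ran over all 60 arrays. On this array, the members' deposited log2 values had a median size of 0.119 and a largest size of 0.565. Those values have the probe's median over 60 arrays, this one included, taken off. All 200 lay within 1.5-fold and 171 within 1.2-fold of their medians. Of the window probes 90.3% and 62.0% did. Its root mean square over the members was 0.173, higher than on 47 of the 59 grouped arrays. Over the window it was 0.393, and 43 of the 59 grouped arrays lay above that.

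The values of the members on single arrays are a description too, since the same values set the SD that chose them. The root mean square of their values on an array ran from 0.131 to 0.237 over the 59 arrays, with a median of 0.153, while over the window it ran from 0.339 to 1.05. The most deviant array was that of replicate 10 of day 2, at 0.237 for the members and 1.05 for the window. On it, 48.3% of the window probes and 1 of 200 members lay beyond 1.5-fold of their median. Over all 59 arrays, 11 of the members' values (0.0932%) lay beyond 1.5-fold, against 16.8% of the window's, and 50 arrays had none. Without replicate 10 of day 2 the rule kept 175 of the 200 probes, the fewest of any array left out, and the count within 1.2-fold on day 2 was 152.

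**Figure D5:**
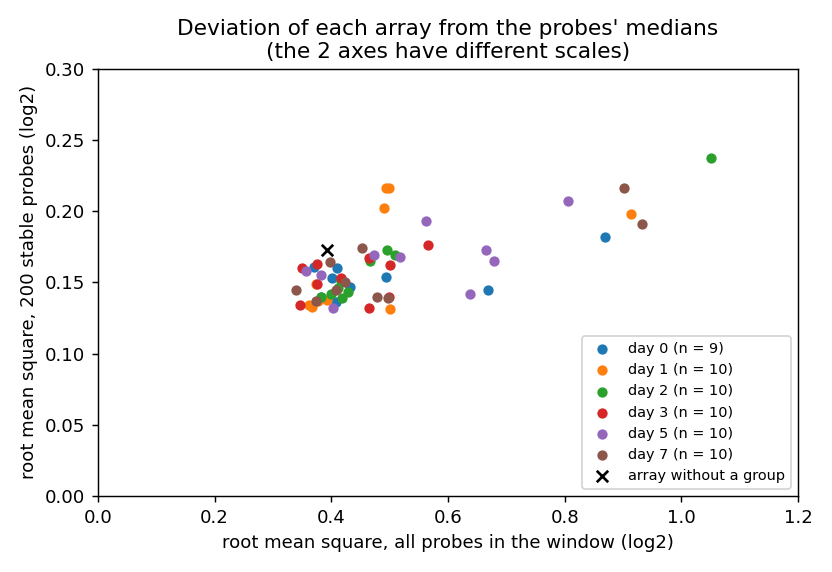
Each point is an array, with the root mean square of its deposited log2 values over all probes of the window (x axis) and over the 200 members (y axis, on another scale); colours are days and the cross is the array without a group. The arrays spread from 0.339 to 1.05 along the window axis and from 0.131 to 0.237 along that of the members, and replicate 10 of day 2 is the farthest on both.

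The spread of the members between fish of a day had a median SD of 0.147, 0.165, 0.160, 0.145, 0.163 and 0.160 on days 0, 1, 2, 3, 5 and 7, on the loess scale. The window medians were 0.344, 0.338, 0.369, 0.294, 0.353 and 0.372. The median of the members was above that of day 0 on days 1, 2, 5 and 7 and below it on day 3. That of the window was above day 0 on days 2, 5 and 7 and below it on days 1 and 3. Day 3 was the lowest of the 6 in both sets. The members were chosen for small spread over these same fish, so their values are a description. No test was made of the differences between days.

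The variation that the members kept was set against day, slide, tank and position. Days held a median of 7.27% of a member's variation and 7.55% of a window probe's, where the number of groups alone gives 8.62% on average. Slides held 26.8% and 27.4% (24.1% from the number of slides), and tanks 0.715% and 0.924% (1.72%). Positions on the slide held 4.74% and 3.83% (5.17%). The shares from the number of groups are averages set beside medians, so the gaps between them are not read. The first principal component of all probes, which carried 26.9% of the variation of the whole series, held a median of 8.0% of a member's variation and 21.9% of a window probe's. The share of an axis with no relation to a probe is 1.72% on average, and 156 of 200 members (78.0%) and 86.1% of window probes lay above that average. How many probes an unrelated axis would put above it was not computed.

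Correlations between members are a description as well. Over the 19900 pairs, the correlation of their log2 ratios across the 59 fish had a median of 0.04, with 5th and 95th percentiles of -0.28 and 0.37, and 35 pairs exceeded 0.6. The closest were C035R057 with C162R030 and C063R062 with C040R068, both at 0.75. Over the window's pairs these percentiles were -0.54 and 0.55. All pairs share the arrays and their normalization. On neighbouring spots (up to 1 row and 1 column apart) lay 6 pairs of members, and more members came from the high-numbered rows of the array (57 at low and 60 at high columns) than from the low-numbered rows (44 and 39). The window's probes were spread evenly over the same 4 blocks, with 24.7% to 25.3% in each.

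The channels of the ratio are described apart here, with no test, since a choice by a small SD of the ratio also favours probes whose channels vary little or vary together. With each array centred on the window's median, the log2 Cy5 signal had a median SD of 0.192 in the members and 0.378 in the window. The Cy3 signal, which read the same pool on every array and so carries no difference between fish, had 0.117 and 0.161. The correlation of the Cy5 and Cy3 signals over the arrays was above 0 in all 200 members and in 13829 of the 15720 window probes, with medians of 0.45 and 0.24. These values share the arrays and their centring.

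Bright spots carried flag code 3 more often. It fell on at least 1 array for 88 of 200 members (44.0%), against 20.8% of the window. On most of the 59 arrays it fell for 12 members and for 147 of the 15720 window probes. The members' spots with code 3 had a Cy5 signal of 1401 to 35448, with a median of 11150, and no member exceeded 41350 on any array. The 88 members had a median SD of 0.166 and a median half-width of 0.173, and the 112 without the code had 0.162 and 0.169, and no test of that difference was made. No member carried code 2.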

How the data were processed

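2-colour arrays of 60 salmon on 15 slides were analysed, 59 of them in 6 day groups. The deposited scanner files give the intensity of each spot as the median signal after background correction, per the file headers. Flag codes 0 to 3 were deposited with no key. How the background was corrected is not stated in those headers. A value table deposited by the authors holds log2 values with a probe median of 0 over 60 arrays. Over the window each array's column correlated at 0.999 to 1.0 with the loess log2(Cy5/Cy3) computed here without an offset, centred on probe medians. The rule for the members used that table.

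For the fit, signals below 0 were set to 0, 50 was added to both channels (5.68% of the sum for the dimmest member, so its changes are slightly understated), and log2(Cy5/Cy3) was normalized by loess within each array. Loess sets the typical ratio at each signal level to 0, so every bound is relative to probes of like signal. Day means were fitted with lmFit and eBayes in limma 3.58.1 (R 4.3.3) over 43627 probes, without covariates. Tests are two-sided with Benjamini-Hochberg adjustment, and the fit was tested on simulated data. Replicates are separate fish, the fish of a day came from 2 tanks, and the fit does not model tank.

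Probes named by rule are the 6 with the smallest SD and the 6 with the farthest interval limit. With them come 2 on each side of the set's edge and the brightest and dimmest member. The members of the closest correlated pairs, and those named only for an unadjusted p, were named after their values were seen. Members, lists and tests were chosen with earlier results of these data known. Planned gene lists and cell type markers gave no result, because probes could not be joined to genes. Summaries used Python 3.11.15. The number of arrays limits the precision.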

Additional observations from a re-analysis of the deposited data

Results flagged for a closer look

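For the 16 members named by rule and for the arrays' root mean square, each of the 6 days was examined for a single fish lying apart, 102 sets of values in all. In 8 sets 1 fish lay apart, where a rate of 1 in 20 sets would give 5.1. The probes were chosen by their spread over these same fish and the sets share arrays. That rate therefore need not hold here, and the count is not read against it. The root mean square over the members was 0.237 in replicate 10 of day 2, and the second highest of that day was 0.173. The log2 ratio of probe C004R127 was 0.212 in replicate 6 of day 3, above a second highest of -0.00188. Probe C144R152 was also highest in that fish, at 0.452, with the next at 0.112. Probe C218R164 stood at 0.325 in replicate 7 of day 0, with the next at 0.162. Probe C107R130 stood at 0.281 in replicate 6 of day 1, with the next at 0.0195, and at -0.40 in replicate 5 of day 7, with the next lowest at -0.138. On day 3, probe C089R047 was lowest in replicate 4, at -0.0158 with the next at 0.239, and probe C246R089 in replicate 8, at 0.000159 with the next at 0.318.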

How the results depend on the processing

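The count of members past an adjusted p stayed at 0, and that within 1.5-fold at 198 to 200, on each day under every setting run. The median half-width ran from 0.143 (offset of 200) to 0.283 (tank 1 alone) over all settings, and was 0.177 with the authors' value table. With median centring in place of loess it was 0.271, so the bounds were looser on that scale. The members' median difference then moved to -0.05, 0.14, 0.08, 0.09 and 0.08 on days 1, 2, 3, 5 and 7. The window's moved to -0.05, 0.14, 0.12, 0.11 and 0.09 on the same days. The cause of this shift was not tested. The replicate block gave a median half-width of 0.178 on day 1 and 0.173 on the other days. With it 158 members lay within 1.2-fold on day 1, against 177 without it. Same-numbered fish are different animals, whose deviations correlated at 0.0142 on average over the members, so the numbers do not pair them.

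Counts within 1.2-fold on days 1, 2, 3, 5 and 7 were 17, 5, 9, 14 and 6 with median centring (window 0.223% to 0.903%). In tank 1 alone they were 3, 5, 5, 0 and 4 (window 0% to 0.0382%). In tank 2 alone they were 14, 18, 14, 19 and 22 (window 0.146% to 0.216%). With 99% intervals they were 101, 81, 77, 72 and 87. With slide as a fixed block they were 60, 85, 110, 79 and 87 on days 1, 2, 3, 5 and 7. For these last settings the window's shares are not given. Single tanks leave fewer fish, and fixed slide terms leave fewer degrees of freedom. With slide as a fixed block the median half-width ran from 0.202 on day 3 to 0.227 on day 1. The cause of the lower counts with that block was not tested.

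Of the 200 members, another choice kept 101 by the median absolute deviation, 133 by the arrays of tank 1, 121 by those of tank 2, and 112 with probes of code 3, or of codes 2 or 3, left out. The count of 112 was fixed beforehand, because 88 members carried code 3, none carried code 2 and the ranking by SD stayed the same. The other planned choices kept more. Leaving out each array in turn, a setting added after seeing the data, kept 175 to 195.

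Counts at an unadjusted p under 0.05 moved on small numbers. With ordinary standard errors they were 1, 9, 11, 14 and 5 on days 1, 2, 3, 5 and 7. In tank 1 alone they were 2, 1, 3, 1 and 0, where the window had 240, 299, 307, 969 and 148 of 15720 probes. In tank 2 alone they were 1, 1, 0 and 1 on days 1, 2, 3 and 5, where the window had 383, 451, 552 and 241. With an offset of 200 they were 1, 10, 13 and 4 on days 1, 2, 5 and 7. On days 2, 3, 5 and 7, median centring gave 9, 3, 3 and 1, where the window had 567, 896, 498 and 405. An intensity trend with robust moderation gave 3, 3, 1 and 1 members on those days. Slide as a fixed block gave 3, 0 and 3 on days 2, 3 and 5, and the replicate block 3, 5 and 1 on days 2, 5 and 7. The value table and the floor of 1 each gave 5 and 1 on days 5 and 7. Array weights gave 14 on day 3, position as a block gave 1 on day 7, and the array without a group, taken as day 0, gave 1 on days 1 and 7. Without replicate 10 of day 2, added after seeing the data, the half-width was 0.169 to 0.174, counts within 1.2-fold were 150 to 179, and the unadjusted counts were 0 to 8. Window counts under the other settings are not given, and none of the members' counts is read against the window. The cause of the shifts among small counts was not tested.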
